A study of Mus musculus with 7 samples.

Results

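The ribosomal protein genes of the cytosolic ribosome were followed through a loss of H3K79me2, the dimethylation of lysine 79 of histone H3, in mouse macrophages. The members were the coding genes of RefSeq (assembly GRCm38.p6, which mm10 names) whose symbols begin with Rpl or Rps and a number, together with Rplp0 to Rplp2 and Rpsa, leaving out the Rps6k kinases. Of 91 such symbols, 82 were overlapped by at least 1 region of the deposited count table, and each gene was represented by its region with the most counts on average. These 82 regions, out of 29397 in the table, were distinct from each other: 49 lay at genes of the large subunit (Rpl and Rplp) and 33 at genes of the small subunit (Rps and Rpsa). A region was found at 90.1% of the 91 symbols, against 43.4% of all 21896 coding genes.

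Macrophages were grown from C57BL/6 bone marrow over 7 to 8 days in medium conditioned by L929 cells, a fibroblast line that secretes the growth factor M-CSF. SGC0946 at 1 µM, an inhibitor of the H3K79 methyltransferase DOT1L, was present during differentiation in 3 samples, and its solvent DMSO in 3 control samples, described as biological replicates. The growth label names both wild-type and knockout donors and does not assign these samples to either. A chromatin input sample was not analysed here. The SGC0946 libraries held 3.13, 3.01 and 2.95 M counts in regions, and the DMSO libraries 16.7, 17.0 and 19.5 M. All 10 macrophage genes examined (among them Csf1r, Spi1 and Adgre1) had a region. None of the B cell or stromal and endothelial markers did, while Lck, Klf1 and Mpo had regions of 500 bp only, with at most 12 counts in any library. Zbtb46, listed for dendritic cells, had a region of 14466 bp, while Flt3 and Xcr1 had none.

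Ribosomal proteins are made in near equal amounts and assembled with ribosomal RNA into the large and the small subunit, and their genes are among the most steadily transcribed of any growing cell. The genes are short, many carry small nucleolar RNAs (snoRNAs, guides of RNA modification) in their introns, and their messenger RNAs begin with a run of pyrimidines through which the mTOR pathway controls translation. H3K79me2 is placed by DOT1L over the first part of transcribed genes, downstream of the start site.

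The 9 symbols with no region were Rpl10l, Rpl3l, Rpl39l, Rpl32l, Rpl37rt, Rps27rt, Rps23rg1, Rpl31-ps12 and Rpl34-ps1. Rpl3l and Rpl10l are tissue-restricted relatives of Rpl3 and Rpl10. The 82 regions ran from 1229 bp at Rpl41 to 21799 bp at Rpl7a, with a median of 3664 bp, against a median of 984 bp over all regions of the table. The genes under them had a median length of 3179 bp. A region covered a median of 96.3% of its gene, the whole gene in 32 cases and at least 90% of it in 53. The annotation used gives gene spans without exons, so exons and introns were not separated. For 62 members the RefSeq promoter table gave a start site, and 56 of those lay inside the region. The 6 start sites outside were those of Rpl6, Rpl7l1, Rpl22, Rpl36a, Rplp0 and Rps4x.

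**Figure D1:**
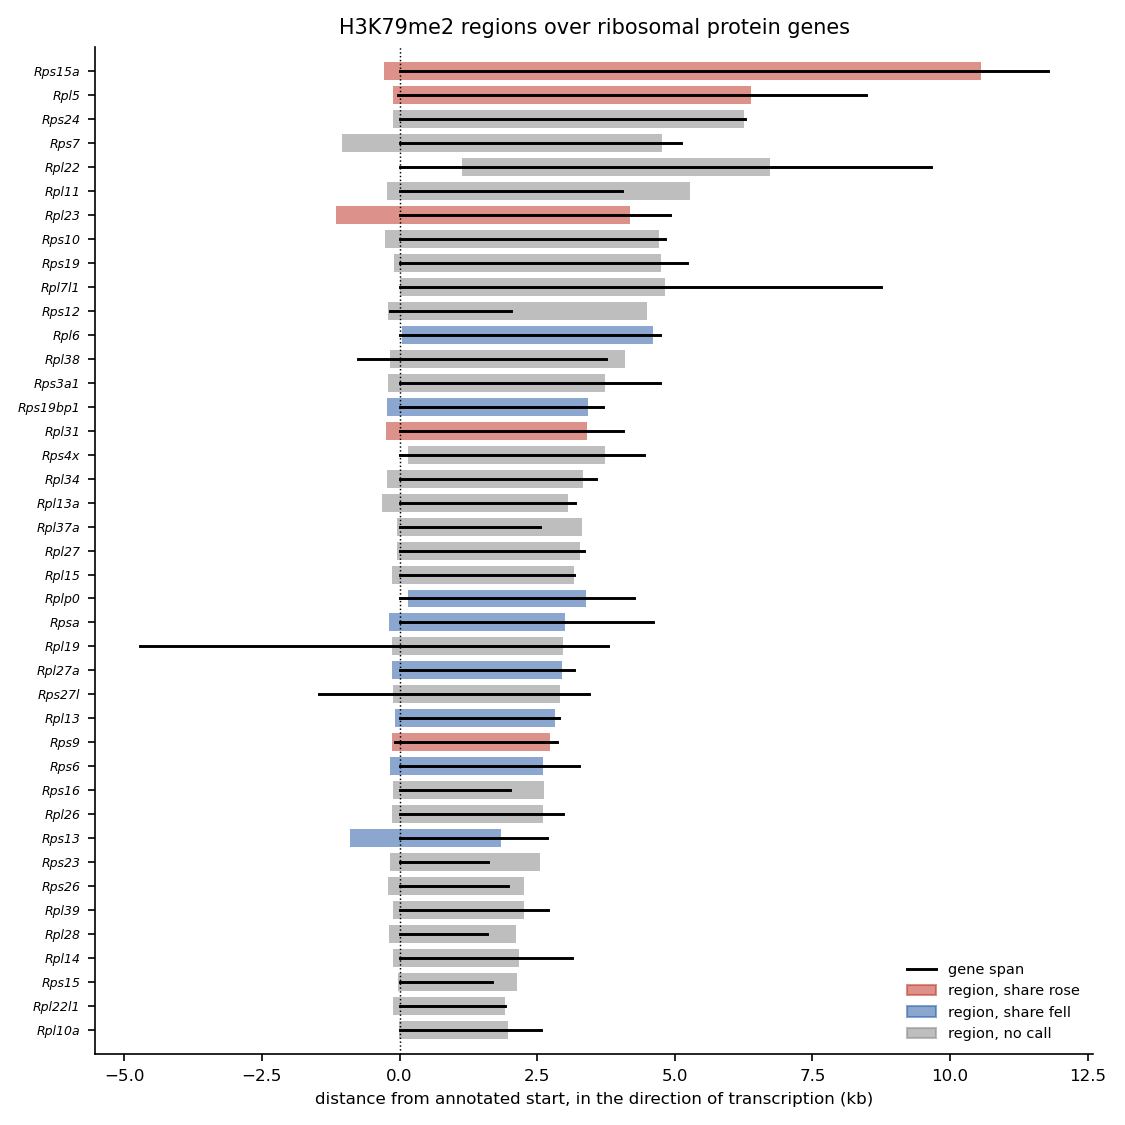
H3K79me2 regions (bars) and gene spans (black lines) of the 41 members whose region overlaps only that coding gene and whose start site is known, as distance from the start site in kb in the direction of transcription. Bars are coloured by the call on the share of library counts with SGC0946 against DMSO, scaled by library totals. None of the rises held when libraries were scaled on the sparsest 25% of regions, a scaling that lowered all regions. Most regions begin close to the start and end near the gene's end.

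Regions were not always the gene's own. In 57 cases the region overlapped 1 coding gene, in 25 several, and in 11 another gene had the longer overlap. Rpl7a shared its region with 5 neighbours of the Surf cluster (Med22, Surf1, Surf2, Surf4 and Surf6), Rpl36a with Gla and Hnrnph2, Rpl10 with Dnase1l1, Rps27 with Nup210l and Rab13, Rpl36 with Lonp1, Rpl4 with Zwilch and Rpl12 with Lrsam1. The counts of such a region cannot be divided between its genes. Ribosomal protein genes also have many processed pseudogenes. Of 309 annotated here, 16 were touched by a region, and 16 of the 17 regions involved also lay in a coding gene. The sources used here do not say how reads that map to both a gene and its pseudogenes were treated.

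Start sites are shown for the 8 members below because each carried a run of at least 6 pyrimidines (capitals) on the coding strand. A run was counted if any of it lay within 10 bases of the annotated start on either side. It need not be the run that opens the messenger RNA: those of Rpl4 and Rpl6 end before the annotated start. Each window holds 30 bases before and 30 bases from the start, in RefSeq sequence of GRCm38.p6. The first 4 belong to members whose share of the library rose with SGC0946 when scaled by library totals (not when scaled on the sparsest regions), and the last 4 to members whose share fell. They lie at chr7:3704011-3704070 (plus strand), chr9:64173357-64173416 (plus), chr7:118116118-118116177 (minus), chr2:32961682-32961741 (plus), chr4:86857338-86857397 (minus), chr5:121204471-121204530 (plus), chr7:109519165-109519224 (plus) and chr3:90213619-90213678 (minus), in the order printed.
Rps9: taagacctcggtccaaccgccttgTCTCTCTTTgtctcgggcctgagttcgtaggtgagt
Rpl4: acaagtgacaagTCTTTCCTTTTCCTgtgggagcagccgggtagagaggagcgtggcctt
Rps15a: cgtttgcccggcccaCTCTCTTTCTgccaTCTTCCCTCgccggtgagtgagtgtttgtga
Rpl12: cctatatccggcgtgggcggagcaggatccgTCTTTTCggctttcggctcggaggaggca
Rps6: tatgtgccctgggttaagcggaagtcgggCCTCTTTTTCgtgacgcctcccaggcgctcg
Rpl6: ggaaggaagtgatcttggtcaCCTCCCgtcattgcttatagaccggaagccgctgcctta
Rpl27a: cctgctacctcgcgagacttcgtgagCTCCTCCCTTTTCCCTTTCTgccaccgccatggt
Rps27: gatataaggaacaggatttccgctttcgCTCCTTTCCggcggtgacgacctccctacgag

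Such a run was present at 34 of the 62 members with a promoter entry (54.8%), against 28.4% of 17491 coding promoters. The letters CCGGAAG or their complement CTTCCGG, the core bound by ETS factors, stood between 250 bases before and 50 after the start at 24 members (38.7%, against 11.9% of promoters). ATGGCGG or CCGCCAT, bound by YY1, stood there at 10 members (16.1% against 5.43%). GGGCGG or CCGCCC was present at 39 (62.9% against 46.3%), CCAAT or ATTGG at 20 (32.3% against 39.2%), TATAAA or TTTATA at 7 (11.3% against 13.3%) and CACGTG at 5 (8.07% against 7.91%). A match describes the letters and is not evidence of binding. What members kept of the mark was set beside these letters, with no test. With a pyrimidine run the SGC0946 count was a median of 15.3% of the DMSO count, and without one 16.0%. For the ETS letters these medians were 16.2% and 15.5%, for the YY1 letters 14.5% and 15.9%, and for CACGTG, present at only 5 members, 17.7% and 15.7%.

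The promoters of Rps9 and Rps6, which stood near opposite ends of the response, are printed from 250 bases before the start to 30 bases past it. Capitals mark the motif letters searched: ATTGG in Rps9 (chr7:3703791-3704070, plus strand) and CCGGAAG in Rps6 (chr4:86857338-86857617, minus strand).
Rps9: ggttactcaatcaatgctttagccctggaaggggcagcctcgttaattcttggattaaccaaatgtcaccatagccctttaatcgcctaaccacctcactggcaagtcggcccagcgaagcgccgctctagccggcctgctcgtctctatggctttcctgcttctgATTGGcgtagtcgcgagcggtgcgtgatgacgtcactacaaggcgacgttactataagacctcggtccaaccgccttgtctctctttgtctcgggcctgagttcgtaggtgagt
Rps6: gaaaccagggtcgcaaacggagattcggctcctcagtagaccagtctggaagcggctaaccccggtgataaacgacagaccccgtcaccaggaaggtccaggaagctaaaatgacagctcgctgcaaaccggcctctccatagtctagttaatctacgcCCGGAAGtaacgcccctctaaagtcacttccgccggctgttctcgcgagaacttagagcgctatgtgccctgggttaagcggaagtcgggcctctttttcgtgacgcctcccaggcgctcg

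With SGC0946 the counts fell at all 82 ribosomal protein genes. Summed over the 82 regions, the SGC0946 libraries held 13116, 12425 and 12613 counts, and the DMSO libraries 64722, 70091 and 78420. The groups were far apart, and the SGC0946 mean was 17.9% of the DMSO mean. On unscaled counts all 82 regions were called lower (edgeR quasi-likelihood test, Benjamini-Hochberg adjusted p under 0.05), where 99.7% of the 24895 regions tested across the table were also called lower and 0.0201% higher. The log2 fold changes ran from -3.22 at Rps19bp1 to -1.79 at Rps9. In all 82 regions every SGC0946 count lay below every DMSO count, as it did in 97.9% of tested regions. These unscaled differences assume that the libraries were sequenced to a like depth, which the labels give only as a nominal figure.

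What the genes kept differed among them. The SGC0946 count was a median of 15.7% of the DMSO count over the 82 members, with a range of 10.7% at Rps19bp1 to 28.9% at Rps9 and the middle 50% of members between 14.3% and 17.8%. The median over the 23367 regions tested in share was 16.1%, and over the 11055 well-counted regions, those averaging at least 50 counts, it was 13.8%.

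**Figure D2:**
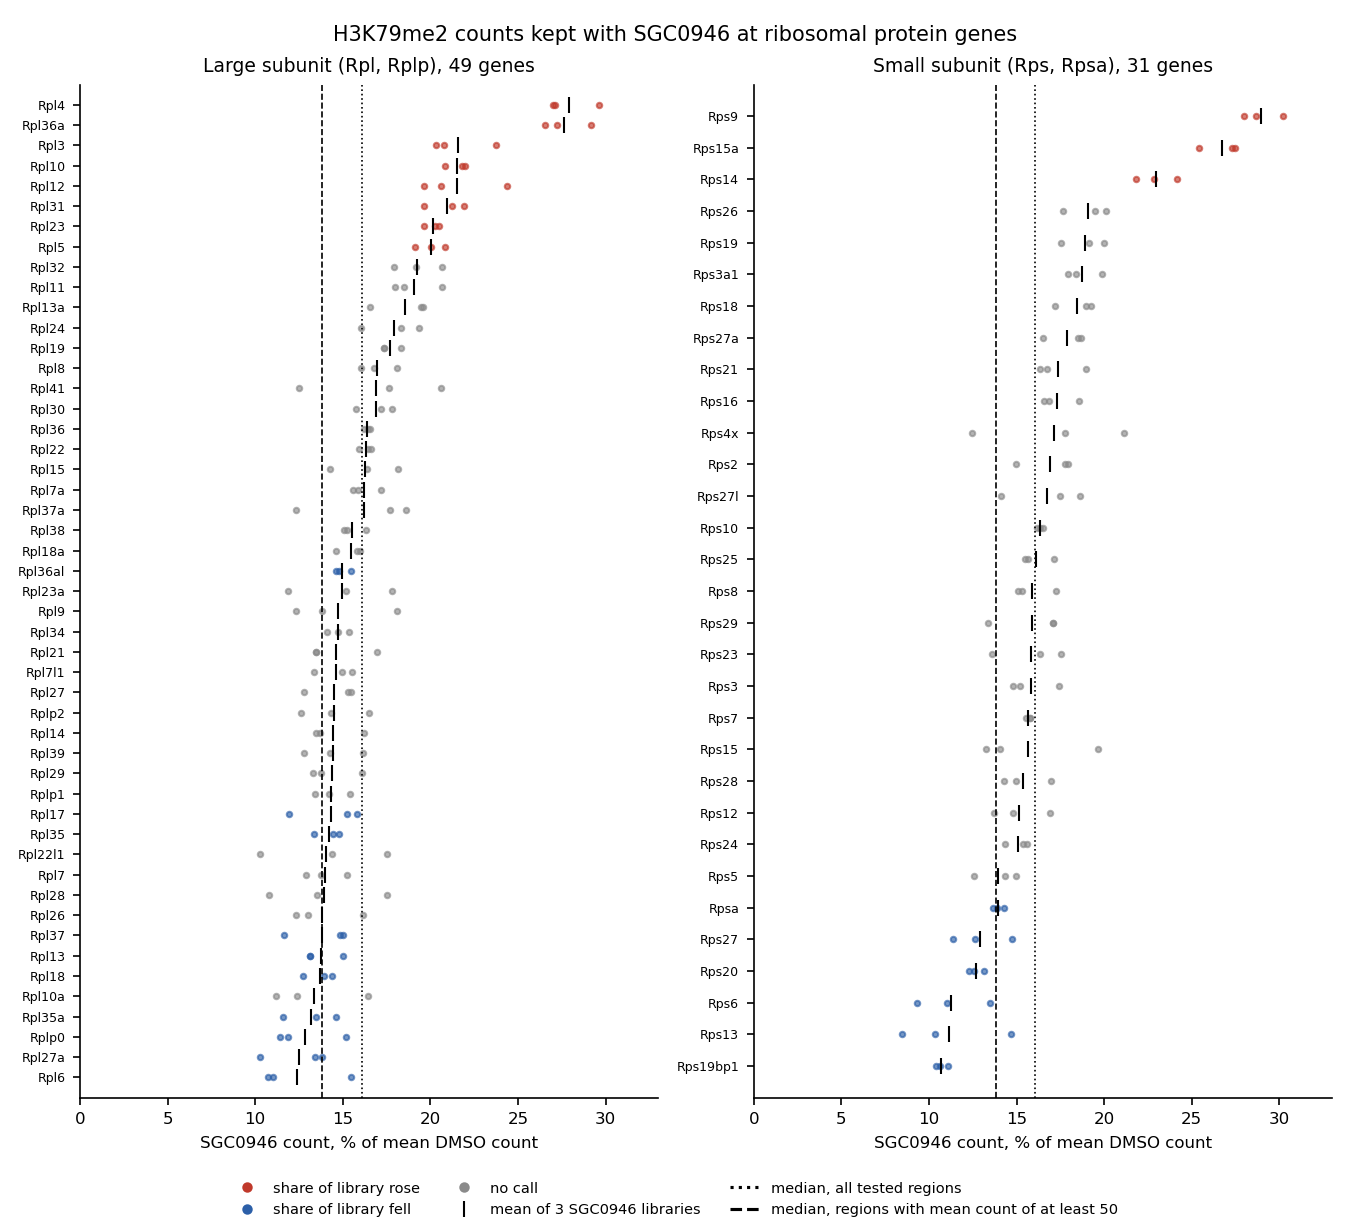
SGC0946 counts as a percentage of the mean DMSO count at 80 of the 82 ribosomal protein genes, on unscaled counts (points, 3 SGC0946 libraries; bars, their mean). Colours give the call on the share of library counts scaled by library totals. The rises were lost when libraries were scaled on the sparsest 25% of regions, a scaling that lowered all regions. The genes run between 10.7% and 28.9%, with Rps9, Rpl4, Rpl36a and Rps15a apart from the others at the high end.

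To ask which genes kept more or less than the library as a whole, each region was tested as a share of its library's total count. The share rose at 11 members and fell at 17, and 54 had no call (edgeR quasi-likelihood test, adjusted p under 0.05 over all 23367 regions). Over all regions, 6.16% of tested regions rose and 23.3% fell, and among the well-counted regions, a class that holds all 82 members, 7.0% rose and 48.6% fell. The median log2 change of share was -0.12 over the members, -0.09 over all tested regions and -0.30 over well-counted regions. Shares in SGC0946 lay wholly below those in DMSO at 30 members (29.4% of tested regions did) and wholly above at 13 (11.2% of tested regions), and they overlapped at 39. Direction depended on scaling: with TMM factors 18 members rose and 5 fell, while scaling on the 25% of regions with the fewest DMSO counts per kb left 0 rises and 78 falls. The whole table moved with the members: 20.9% of all calls were rises with library totals, 35.7% with TMM factors and 2.06% on the sparsest regions, where the median log2 change of all regions was -0.93. Without DMSO replicate 1, 11 rose and 29 fell.

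Rps9, a protein of the small subunit at the entry of the messenger RNA channel, had the highest fold change (region chr7:3703909-3706774). It had 260, 254 and 274 counts in the SGC0946 libraries, against 804, 933 and 987 in the DMSO libraries. As a share, in CPM of the library's total region counts, this was 83.0, 84.5 and 92.8 with SGC0946, against 48.0, 54.9 and 50.6 with DMSO, with no overlap between the groups. The log2 change of share was 0.76 ± 0.07 (SE, adjusted p = 5.4e-14 by edgeR), and -0.062 with scaling on the sparsest regions. The region is short, at 2866 bp, and touches no other coding gene.

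Rpl4, a large subunit protein that lines the peptide exit tunnel, had a region of 8182 bp (chr9:64169267-64177448) that also touches Zwilch. Its share was 159, 151 and 155 CPM with SGC0946, against 89.9, 100.3 and 94.6 with DMSO. The groups did not overlap, and the log2 change was 0.71 ± 0.06 (SE, edgeR adjusted p = 4.1e-17), or -0.12 with scaling on the sparsest regions. Its span holds 5 snoRNA genes, the most of any member.

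Rps15a, a small subunit protein, had the most counts of the members whose region touched 1 coding gene. Its region of 10850 bp (chr7:118105577-118116426) held 934, 865 and 929 counts with SGC0946, against 3044, 3378 and 3780 with DMSO. The share averaged 300.2 ± 13.6 CPM with SGC0946 and 191 ± 8.67 with DMSO (SD, n = 3 each). The log2 change was 0.65 ± 0.05 (SE, edgeR adjusted p = 4.2e-19), or -0.17 with scaling on the sparsest regions.

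Rps14, whose loss in humans underlies the anaemia of the 5q- syndrome, kept 22.9% of its counts (region chr18:60772906-60778380). It held 369, 334 and 349 counts with SGC0946, against 1399, 1539 and 1650 with DMSO, a share difference of 0.42 ± 0.06 on the log2 scale (SE, edgeR adjusted p = 2.9e-08). Scaling on the sparsest regions gave -0.40. Smaller rises followed at Rpl3, a core protein near the peptidyl transferase centre, and at Rpl12, part of the base of the ribosomal stalk.

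Rpl3 had shares of 85.2, 86.8 and 103 CPM with SGC0946, against 69.6, 79.1 and 69.1 with DMSO. Rpl12 had 80.1, 70.5 and 68.4 with SGC0946, against 57.8, 61.1 and 55.5 with DMSO. In both, the lowest SGC0946 library stood above the highest DMSO library, and the log2 changes were 0.34 ± 0.07 for Rpl3 and 0.33 ± 0.07 for Rpl12 (SE, edgeR adjusted p = 7.6e-05 and 0.0002). They were -0.48 and -0.50 with scaling on the sparsest regions. Their regions, chr15:80078552-80083662 and chr2:32959623-32965467, measured 5111 and 5845 bp.

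Rpl36a and Rpl10, both on the X chromosome, also rose in share when scaled by library totals. The longest overlap of each region was with a neighbour, Gla at Rpl36a and Dnase1l1 at Rpl10. At Rpl36a (chrX:134585870-134606312, 20443 bp) the share averaged 272 ± 7.86 CPM with SGC0946 and 168 ± 5.72 with DMSO (SD, n = 3 each), a log2 change of 0.70 ± 0.05 (SE, edgeR adjusted p = 2.1e-20). At Rpl10 (chrX:74270785-74281815, 11031 bp) it averaged 88.0 ± 1.58 with SGC0946 and 69.7 ± 4.13 with DMSO (SD, n = 3 each), a change of 0.34 ± 0.07 (SE, edgeR adjusted p = 4.4e-05). The groups did not overlap at either, and scaling on the sparsest regions gave -0.12 at Rpl36a and -0.49 at Rpl10. The other X-linked members, Rps4x and Rpl39, had no call (log2 0.01 and -0.25).

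The other 3 rises were smaller. Rpl31, at the rim of the exit tunnel, changed by 0.29 ± 0.07 (SE, edgeR adjusted p = 0.00094), Rpl23 by 0.24 ± 0.06 (adjusted p = 0.0021) and Rpl5 by 0.23 ± 0.07 (adjusted p = 0.0046). Rpl5 is a component of the 5S ribonucleoprotein particle and binds Mdm2 when ribosome assembly stalls. Rpl11, its partner there, had no call (log2 0.16, adjusted p = 0.11). All 11 rises were still called with any 1 library left out, and none with scaling on the sparsest regions. They were also called with TMM factors and with DESeq2, but could hardly have lost their calls there. These settings moved the median log2 change of all regions up, from -0.09 to 0.05 with TMM factors and 0.06 with DESeq2. Scaling on the sparsest regions moved that median down to -0.93. The largest rise of a member was 0.76, at Rps9, so no member's rise could have held there. The loss of the rises with that scaling therefore does not tell members apart.

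**Figure D3:**
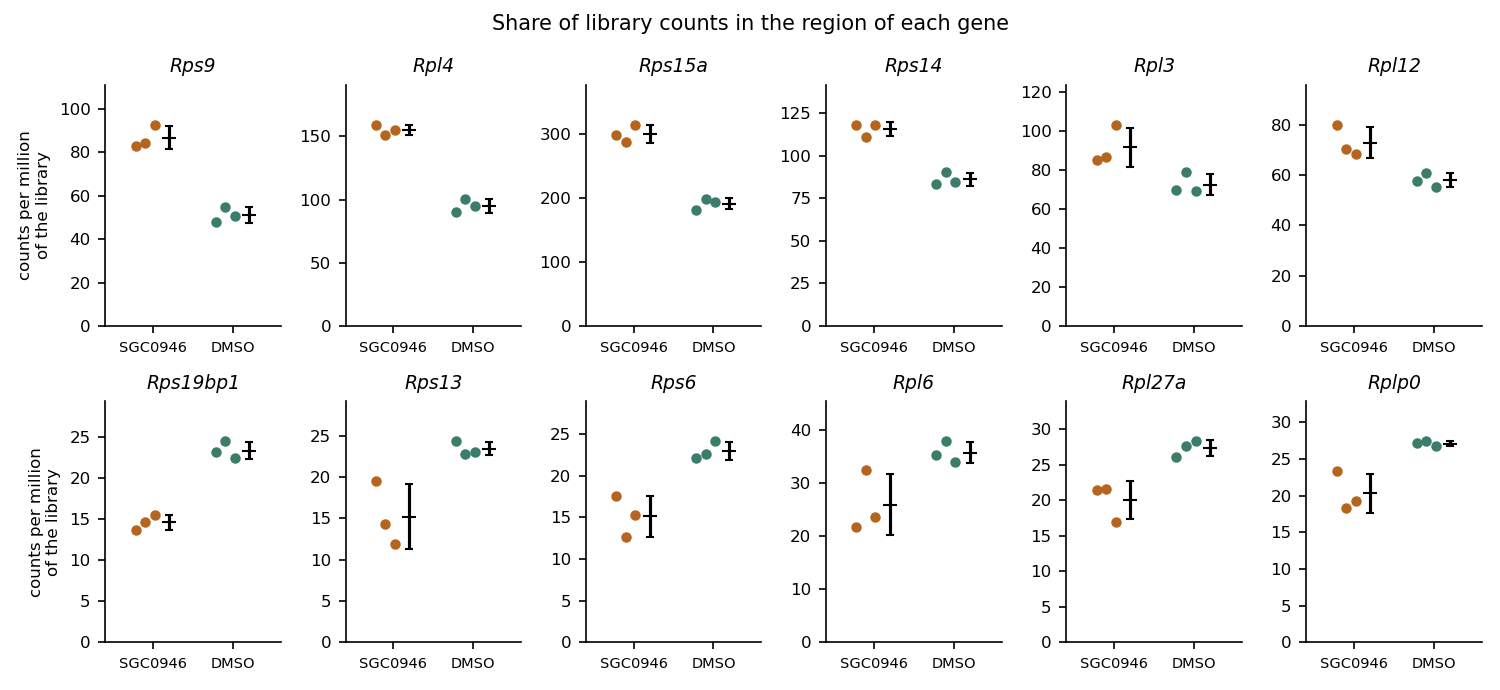
Share of library counts in the region of 6 members with a rise and 6 with a fall in share, in CPM (counts scaled to the library's total region counts), for the 3 SGC0946 and 3 DMSO libraries (points; bars, mean ± SD). At all 12 the groups do not overlap. With libraries scaled on the sparsest 25% of regions, which lowered all regions, the 6 rises turn to values at or below -0.062 on the log2 scale.

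Rps19bp1 had the deepest fall in share. It encodes a nucleolar partner of Rps19 and of the deacetylase SIRT1, not a structural protein of the ribosome, and came in by its symbol. Its region (chr15:80260883-80264537) held 43, 44 and 46 counts with SGC0946, against 388, 417 and 438 with DMSO. It kept 10.7% of its counts, and its share changed by -0.67 ± 0.13 on the log2 scale (SE, edgeR adjusted p = 2.3e-05), with no overlap between the groups. Rpl3, 177220 bp away on the same chromosome, kept 21.6%.

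Among structural proteins of the small subunit, Rps13 and Rps6 fell most. Rps6 is the target of the S6 kinases downstream of mTOR. Its region (chr4:86854759-86857542) held 55, 38 and 45 counts with SGC0946, against 370, 384 and 471 with DMSO. At Rps13 (chr7:116332353-116335089) there were 61, 43 and 35 counts with SGC0946, against 407, 388 and 450 with DMSO. The shares did not overlap at either gene, although the SGC0946 libraries spread widely at Rps13, and the log2 changes were -0.60 ± 0.13 at Rps6 and -0.61 ± 0.14 at Rps13 (SE, edgeR adjusted p = 0.00018 and 0.00016).

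Rps20, whose region (chr4:3832687-3835885) held 49, 47 and 46 counts with SGC0946 and 346, 344 and 431 with DMSO, changed in share by -0.43 ± 0.13 (SE, edgeR adjusted p = 0.008). Rps27 held 84, 72 and 65 counts with SGC0946, against 527, 577 and 608 with DMSO, in a region (chr3:90210164-90213836) whose longest overlap was with Nup210l. Its share changed by -0.40 ± 0.11 (SE, edgeR adjusted p = 0.0023). The shares of both genes were lower in every SGC0946 library. The 2 calls were lost with TMM factors, where adjusted p was 0.096 for Rps20 and 0.061 for Rps27.

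In the large subunit, Rpl6 (chr5:121204540-121209097) held 68, 98 and 70 counts with SGC0946, against 592, 645 and 665 with DMSO. Rpl27a (chr7:109519062-109522147) held 67, 65 and 50 with SGC0946, against 437, 468 and 552 with DMSO. Their log2 changes of share were -0.46 ± 0.11 for Rpl6 and -0.45 ± 0.12 for Rpl27a (SE, edgeR adjusted p = 0.0005 and 0.0018). No SGC0946 share reached a DMSO share at either gene. With the DESeq2 Wald test the calls were lost, with adjusted p of 0.10 for Rpl6 and 0.16 for Rpl27a.

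The stalk, through which the ribosome recruits translation factors, is built of Rplp0 with dimers of Rplp1 and Rplp2. Rplp0 (chr5:115559622-115562854) had shares of 23.3, 18.3 and 19.3 CPM with SGC0946, against 27.1, 27.4 and 26.8 with DMSO, without overlap, and changed by -0.41 ± 0.12 (SE, edgeR adjusted p = 0.0039). Without SGC0946 replicate 2 its adjusted p was 0.055, and with TMM factors 0.075. Rplp1 (chr9:61912743-61914764) had 11.5, 11.3 and 13.2 with SGC0946 and 13.1, 14.9 and 14.7 with DMSO, and Rplp2 (chr7:141447416-141451285, which also touches Pidd1) had 29.4, 35.3 and 27.4 with SGC0946 and 35.3, 39.7 and 34.0 with DMSO. The groups overlapped at both, with log2 values of -0.25 ± 0.15 and -0.24 ± 0.10 that did not pass the test (SE, edgeR adjusted p = 0.25 and 0.076). Rplp2 passed it without DMSO replicate 1 (adjusted p = 0.046), without DMSO replicate 3 (0.037) and without SGC0946 replicate 2 (0.018).

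Rpsa, a protein at the back of the small subunit that is also known as the laminin receptor, stood at the threshold (chr9:120127573-120130765). Its share was 21.1, 23.0 and 22.7 CPM with SGC0946, against 25.5, 28.5 and 27.6 with DMSO. The groups did not overlap, and the change was -0.29 ± 0.12 (SE, edgeR adjusted p = 0.047). The call was lost with TMM factors (adjusted p = 0.37), with no count filter (0.051), and in 5 of the 6 fits that left out a library, all but that without DMSO replicate 1.

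The other falls included Rpl35a, Rpl18, Rpl13, Rpl37, Rpl35, Rpl17 and Rpl36al, with log2 changes of -0.37 at Rpl35a to -0.19 at Rpl36al. Rpl17 stood at the threshold (edgeR adjusted p = 0.0496). None of these genes kept its call with TMM factors, where the 5 falls were Rps19bp1, Rps13, Rps6, Rpl6 and Rpl27a. Neither DESeq2 setting called them. Of these, Rpl35a shared its region with Iqcg, Rpl37 with Card6, Rpl18 with Dbp and Sphk2, Rpl35 with Arpc5l and Rpl36al with Dnaaf2 and Mgat2. At Rpl18, Rpl35 and Rpl36al a neighbour had the longer overlap. RPL35A is among the human genes mutated in Diamond-Blackfan anaemia, a failure of red cell production. The gene most often mutated there, RPS19, has the mouse counterpart with the densest region of the list, and Rps19 had no call (log2 0.15 ± 0.06 SE, edgeR adjusted p = 0.082).

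Large and small subunit genes were then compared. Of 49 Rpl members 8 rose and 10 fell in share, and of 33 Rps members 3 rose and 7 fell (background as above). The median log2 change was -0.19 for Rpl and -0.10 for Rps, and the medians kept were 14.9% and 15.9%. The difference of these medians, -0.09, was within the spread of the SGC0946 libraries. Computed in each of them against the same DMSO mean it was -0.14, 0.06 and -0.02 (mean -0.03 ± 0.10 SD, n = 3). The summed counts, which weigh members by their counts, gave a small shift that did not overlap. Rpl counts were 1.58, 1.57 and 1.56 times the Rps counts with SGC0946, against 1.62, 1.61 and 1.61 times with DMSO. Rps15a alone held 934, 865 and 929 of the 5092, 4830 and 4930 Rps counts with SGC0946. With DMSO it held 3044, 3378 and 3780 of 24746, 26816 and 30096. The shift rested on this gene and is not a result about the subunits as wholes. For 3 against 3 libraries the smallest p of an exact permutation test is 0.1, so none is given. Summed over all 82 members, the share was 0.420 ± 0.0070% of library counts with SGC0946 and 0.400 ± 0.0129% with DMSO (SD, n = 3 each). The share of the median member went the other way, at 33.6 ± 1.51 CPM with SGC0946 and 38.1 ± 1.55 with DMSO (SD, n = 3 each).

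Length separated the members more clearly. The 41 members with regions of at most 3664 bp had 2 rises (Rps9 and Rpl31) and 9 falls, and a median log2 change of -0.22. The 41 longer ones had 9 rises and 8 falls and a median of -0.07. Across the table the order ran the other way: among well-counted regions split at the same length, 1.6% of short regions rose and 20.4% fell with a median of -0.23, and 9.49% of long regions rose and 61.6% fell with a median of -0.34. Short members' counts were 0.318, 0.319 and 0.306 times those of long members with SGC0946, against 0.358, 0.363 and 0.368 times with DMSO, with no overlap. This ratio weighs members by their counts and rests in part on Rps15a, Rpl36a and Rpl4. In SGC0946 replicate 1 they held 934, 870 and 499 of 9955 long counts. In DMSO replicate 1 they held 3044, 2701 and 1505 of 47646. The regions of Rpl36a and Rpl4 are shared with neighbours. The difference of medians, short minus long, was -0.17, -0.07 and -0.20 in the 3 SGC0946 libraries (mean -0.15 ± 0.06 SD, n = 3), and all 3 lay below 0. The 3 were taken against the same DMSO mean, so their SD holds no spread of the DMSO libraries. Over the fitted values it was -0.16, and without DMSO replicate 1, 2 or 3 it was -0.20, -0.11 and -0.12. A split at 2 kb gave -0.068, but its short class held only Rpl10a and Rpl41.

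**Figure D4:**
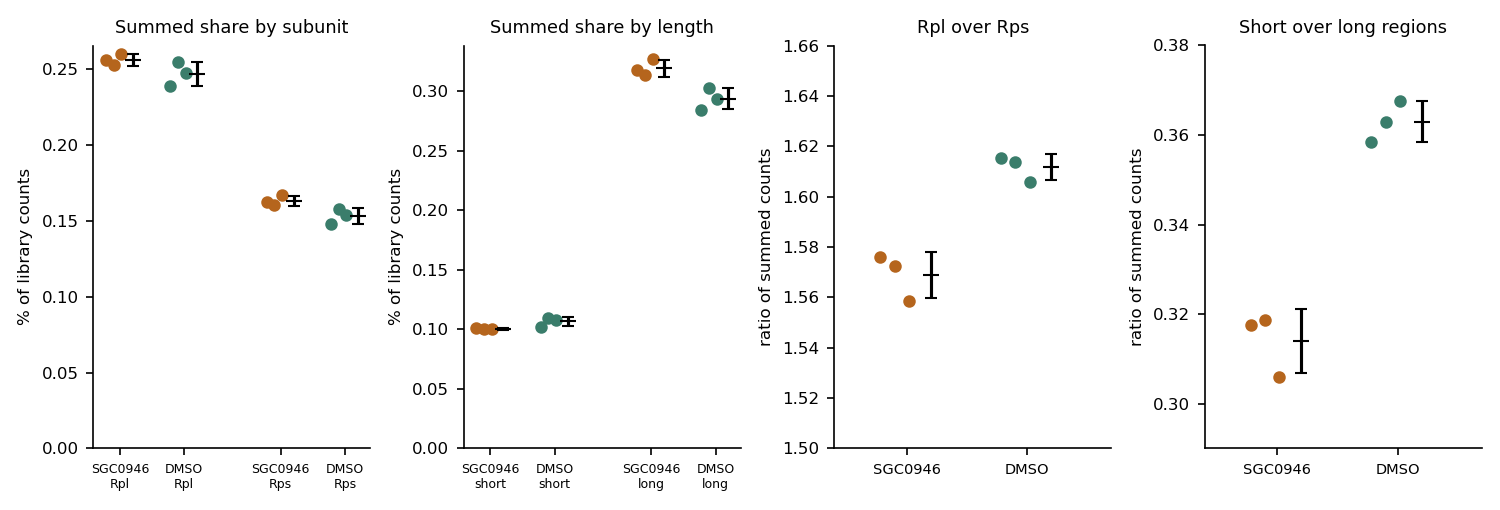
Summed member counts by subunit and by region length, as a percentage of library counts, and the ratios Rpl over Rps and short over long, for the 3 SGC0946 and 3 DMSO libraries (points; bars, mean ± SD; the ratio axes do not start at 0). Both ratios are lower in the 3 SGC0946 libraries than in the 3 DMSO libraries, at 1.56 to 1.58 against 1.61 to 1.62 for Rpl over Rps and 0.306 to 0.319 against 0.358 to 0.368 for short over long. The Rpl over Rps shift rests on Rps15a, with 934 of 5092 Rps counts in SGC0946 replicate 1 and 3044 of 24746 in DMSO replicate 1. The short over long shift rests in part on Rps15a, Rpl36a and Rpl4.

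The relation to length was also taken within each subunit. Over the 49 Rpl members the Spearman correlation of region length with the percentage kept was 0.47, and over the 33 Rps members 0.10. The difference between them was not tested. These points share the same 6 libraries, and long regions more often cover a second gene: of the 41 long members 22 touched several coding genes. The 19 long members that touched 1 coding gene had 5 rises and 2 falls, and a median log2 change of -0.06.

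Read density went with the response as well. Density was taken as mean DMSO counts per kb of region, and its classes were chosen after the values were seen. The densest members were Rps19 with 332, Rps9 with 317 and Rps15a with 313 DMSO counts per kb, and the sparsest were Rps4x with 58.2 and Rpl22l1 with 95.4. The 24 members with at least 200 counts per kb kept a median of 18.6%, and 8 of them rose and 1 fell. The 56 members between 100 and 200 counts per kb kept 14.7%, and 3 rose (Rpl36a, Rpl10 and Rpl12, each sharing its region with a neighbour) and 16 fell.

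Among all well-counted regions, the class of at least 200 counts per kb kept 17.0%, with 38.7% rising and 38.0% falling. The class of 100 to 200 kept 12.6%, with 2.66% rising and 80.3% falling, and that under 100 had 1.2% rising and 33.2% falling. Table-wide regions of these classes were longer than the members, with medians of 14995 and 8067 bp against 4503 and 3422 bp, and so had more counts behind each call. Across the 82 members the Spearman correlation between density and the percentage kept was 0.39, and with density from DMSO replicate 1 and the percentage from the other DMSO replicates it was 0.44. Across the 11055 regions it was -0.10. The 30 members that host a snoRNA kept a median of 15.8%, and the 52 others 15.7%.

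**Figure D5:**
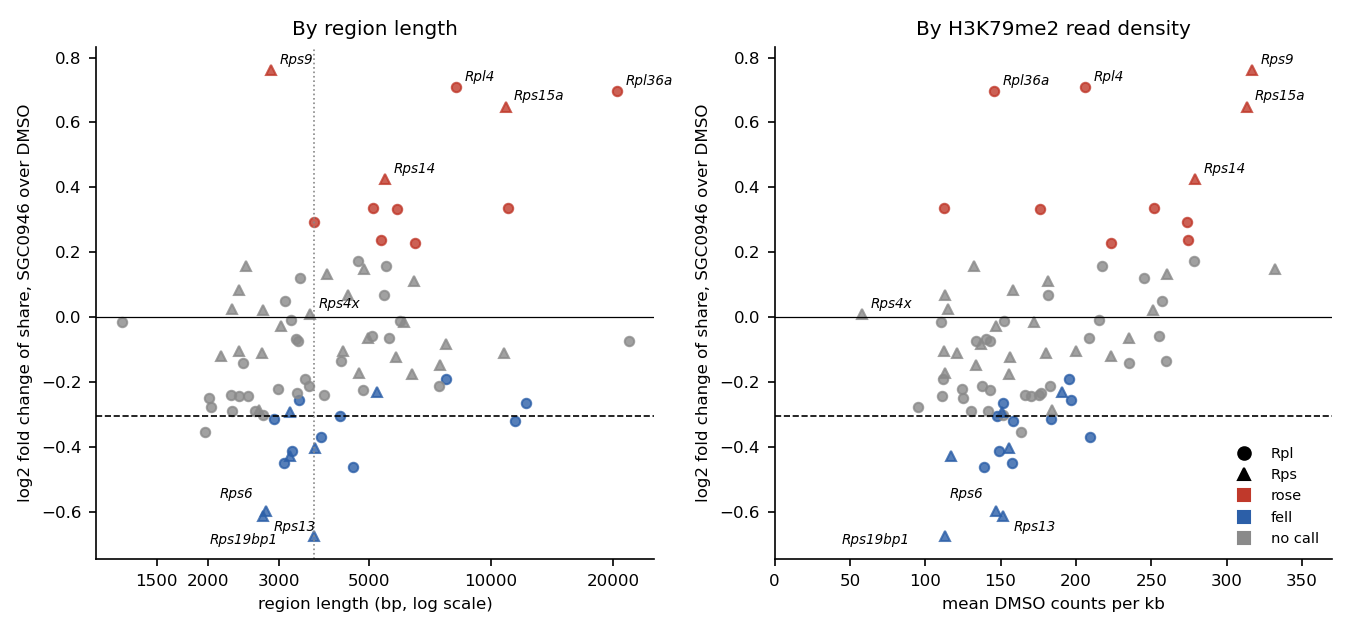
Log2 change of share with SGC0946 over DMSO at the 82 members against region length (left, log axis; dotted line, median length of 3664 bp) and against mean DMSO counts per kb (right), scaled by library totals. The dashed line is the median of regions averaging at least 50 counts (-0.30). Rises lie mostly at long or dense regions. None of them held with scaling on the sparsest 25% of regions, which lowered all regions.

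Neighbouring members were close in some pairs and apart in others. Rps29 and Rpl36al on chromosome 12 kept 15.9% and 15.0%. Rpl41 and Rps26 on chromosome 10 kept 16.9% and 19.1%, and Rps28 and Rps18 on chromosome 17 kept 15.4% and 18.5%. Rpl3 and Rps19bp1 stood at 21.6% and 10.7%, near opposite ends of the list.

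Other genes that serve the ribosome were read from a list of 45 assembly factors, regulators and ribosomal proteins outside the naming rule, all of which had a region. In share 8 rose, 23 fell and 14 had no call, with a median log2 change of -0.26. Over all tested regions, 6.16% rose and 23.3% fell, and among well-counted regions, the class of all the list but Dkc1, 7.0% rose and 48.6% fell with a median of -0.30. Rack1, a scaffold on the small subunit, rose: it had 458, 409 and 422 counts with SGC0946 and 1565, 1650 and 1856 with DMSO (log2 0.57 ± 0.06 SE, edgeR adjusted p = 1.8e-13). Fau, which encodes a small subunit protein fused to a ubiquitin-like sequence, fell by 0.19 on the log2 scale (edgeR adjusted p = 0.012). Each of these 2 regions touched at least 1 other coding gene.

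Nop58, a core protein of box C/D snoRNA particles, held 752, 802 and 734 counts with SGC0946, against 2429, 2628 and 2947 with DMSO. Its log2 change of share was 0.74 ± 0.05 (SE, edgeR adjusted p = 5.0e-21). Ipo7, an importin that carries ribosomal proteins into the nucleus, changed by 0.71 ± 0.04 (SE, adjusted p = 1.5e-23). Dkc1, the pseudouridine synthase of box H/ACA particles, changed by 0.87 ± 0.27 (SE, adjusted p = 0.0076) on few counts, 23, 17 and 10 with SGC0946 and 51, 55 and 54 with DMSO.

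At the other end, Efl1, a GTPase that releases Eif6 from the new large subunit, held 21, 21 and 30 counts with SGC0946, against 195, 217 and 264 with DMSO (log2 -0.68 ± 0.18 SE, edgeR adjusted p = 0.0018). Rptor, the subunit that gives mTOR complex 1 its substrates, changed by -0.61 ± 0.06 (SE, adjusted p = 1.9e-14), and Riok1, a kinase of late small subunit maturation, by -0.58 ± 0.10 (SE, adjusted p = 4.2e-06). The regions of Efl1 and Riok1 each touched 2 coding genes, and that of Rptor 1. Mtor fell as well (log2 -0.41), while Larp1, which binds the pyrimidine start of ribosomal protein messenger RNAs, rose (log2 0.51). None of the 8 rises in this list were called with scaling on the sparsest regions, which lowered all regions. The genes of this paragraph other than Efl1, Rptor and Riok1 were chosen after their values were seen.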

How the data were processed

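The authors deposited raw read counts per region, as whole numbers, for 3 SGC0946 and 3 DMSO libraries. Tools named in the submitters' processing notes are R 3.6.3, ChIPseeker 1.20.0, HISAT2, bedtools 2.27.0 and HOMER 4.11.1, with build mm10. The sources used here do not say how regions were called or whether duplicates were removed. No spike-in is named in the labels.

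Regions were joined to RefSeq gene spans of GRCm38.p6 with Python 3.11.15 and pandas 2.3.3, reading starts as zero-based. The members and lists were chosen with earlier results of these data known. All regions were tested in edgeR 4.0.16 under R 4.3.3 (filterByExpr, quasi-likelihood test, Benjamini-Hochberg adjustment over all regions, threshold 0.05), once with library totals as sizes (share) and once with equal sizes (unscaled). DESeq2 1.42.0 served as an alternative. The biological coefficient of variation was 3.57% in share and 8.86% unscaled. Replicate pairs differed by more than sampling noise (chi-square per degree of freedom 1.32 to 2.38). Named members are the 8 highest and 8 lowest in share with a mean of at least 50 counts, the stalk genes, Rpsa, Rps6, Rps9 and Rpl4; the assembly list was named by its 3 highest and 3 lowest called genes. Promoter sequences are RefSeq's, and 62 of 82 members matched. Figures used matplotlib 3.10.9. Values of a few genes are not reported here by name, although they stay in all counts and medians.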

Additional observations from a re-analysis of the deposited data

How the results depend on the processing

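All 82 falls on unscaled counts were called under each alternative run. In share, the 11 rises and 17 falls of the members moved with scaling. DESeq2 size factors gave 18 rises and 4 falls, TMM factors 18 and 5, and scaling on the sparsest 25% of regions 0 and 78. The DESeq2 Wald test with its own size factors, which changes both test and scaling, gave 16 and 3. Members whose region touched 1 coding gene had 7 and 11. The median of all regions was -0.09 with library totals, 0.05 with TMM factors and -0.93 on the sparsest regions. The members' median minus this median was -0.03 in these 3, but a change of scaling shifts all regions nearly alike, so it could hardly move. In fits that tested other sets of regions it changed sign. It was 0.19 with a mean of at least 50 counts, 0.11 to 0.15 without 1 DMSO library and -0.18 to 0.03 without 1 SGC0946 library. Leaving out 1 library gave 11 to 14 rises and 14 to 29 falls (29 without DMSO replicate 1), and medians kept of 15.1% to 16.7%. On the sparsest regions the log2 values reversed to -0.062 at Rps9, -0.12 at Rpl4, -0.12 at Rpl36a, -0.17 at Rps15a, -0.40 at Rps14, -0.48 at Rpl3, -0.49 at Rpl10 and -0.50 at Rpl12. The median of all regions was -0.93 there, so these values could not have stayed above 0. The cause of the difference between scalings was not tested. Of 247 values of named members under alternatives, 211 kept direction and side of the threshold, 23 lost the call, 5 gained it and 8 reversed.

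Short minus long was -0.068 with a cut at 2 kb, where the short class held only Rpl10a and Rpl41, and -0.23 between the shortest and the longest members of a 3-way split. The assembly list had 6 falls with the Wald test, 10 with DESeq2 size factors, 11 with TMM factors, 40 (and 0 rises) on the sparsest regions and 13 among regions with 1 coding gene. The summed share was 0.241% with SGC0946 and 0.231% with DMSO over regions with 1 coding gene, and 0.441% and 0.382% of TMM effective sizes.

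Replicate numbers are shared between the groups. Deviations of same-numbered libraries correlated at 0.01, -0.11 and -0.01 over 11055 regions. With 3 libraries in each group such values cannot exclude a shared donor, so whether the samples are paired stays unknown. With a replicate block 11 members rose and 15 fell, the call at Rpsa was lost (adjusted p = 0.079), and not every library correlated best with its own number. The low SGC0946 totals limit the precision of members with few counts, such as Rpl41 with 17 to 28 in SGC0946 libraries.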
